A study of Rattus norvegicus with 23 samples.

Results

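The genes described here are 42 chemokines, cytokines, NF-κB factors, feedback genes of NF-κB or cytokine signals, adhesion molecules, pattern recognition receptors and complement genes. These members were chosen by their symbols among the 30452 genes of the rat count table. Of the members, 37 had sufficient counts to be tested, as did 14777 genes in all. Cxcl2, Il1a, Il1b, Il11 and Tlr2 had at most 14 counts in any sample and were not tested. Their RNA was measured in rat kidney cells of 2 lines, NRK-52E (NRKE in the labels, epithelial) and NRK-49F (NRKF, fibroblast). The cells stood 24 h in medium without serum and then 48 h at pH 7.4 or at pH 6.0, which was set with HCl. There were 6 samples of NRK-52E cells at each pH, 6 of NRK-49F cells at pH 7.4 and 5 at pH 6.0, and all 4 groups shared the serum-free phase. The labels place the samples of each line in 2 sample groups, 1 and 3 for NRK-52E and 4 and 6 for NRK-49F, and each of these holds both pH values. The labels name no separate cultures, so p-values measure the spread between these samples, which may be technical.

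Chemokines are small secreted proteins that guide leukocytes, and tubular cells and fibroblasts of the kidney can both secrete them. Many of them are targets of NF-κB, a family of transcription factors that IκB proteins hold in the cytosol until a cytokine or Toll-like receptor signals their removal. Active NF-κB also switches on its own inhibitors, among them IκBα, IκBε and the ubiquitin-editing enzyme A20, so that these genes serve as feedback and as a readout of the pathway at the same time.

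Sequences before the transcription start are shown for 7 members that had a κB match, because κB motifs are the sites that NF-κB is known to recognise. RefSeq (GRCr8) held a promoter of 300 bases, 250 before and 50 after the start, for 34 of the 42 members. The κB consensus of 10 bases, searched on both strands, was found in 15 of these 34 members (44.1%) and in 7.51% of all 33469 promoters. The AP-1 motif TGANTCA was found in 9 of the 34 (26.5%) and in 7.33% of all promoters. Members were counted by gene, and the background by promoter. Many members are known targets of NF-κB, so the higher share of κB matches came with the choice of the list and supports nothing further. The stretches below are the 110 bases before the start, written 5′ to 3′ on the strand of the gene, with κB matches in capitals. Tnfaip3, Nfkbiz and Nfkbia are feedback genes (chr1:15543980-15544089, minus strand; chr11:58251611-58251720, plus strand; chr6:78597073-78597182, minus strand). Nfkb2 was the subunit gene that rose in NRK-52E cells (chr1:255108264-255108373, plus strand). Cxcl1, a chemokine (chr14:17479322-17479431, minus strand), fell in both lines. Vcam1 (chr2:206742784-206742893, minus strand) had the largest change of the adhesion molecules, and Il6 (chr4:5894576-5894685, minus strand) the largest rise of the regulated members.
Tnfaip3: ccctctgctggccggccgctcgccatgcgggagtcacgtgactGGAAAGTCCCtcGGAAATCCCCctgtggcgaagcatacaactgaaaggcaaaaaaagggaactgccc
Nfkbiz: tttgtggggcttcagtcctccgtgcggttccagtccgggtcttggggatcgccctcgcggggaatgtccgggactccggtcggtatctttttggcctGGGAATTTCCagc
Nfkbia: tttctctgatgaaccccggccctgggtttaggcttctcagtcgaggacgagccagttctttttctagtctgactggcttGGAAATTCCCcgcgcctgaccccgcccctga
Nfkb2: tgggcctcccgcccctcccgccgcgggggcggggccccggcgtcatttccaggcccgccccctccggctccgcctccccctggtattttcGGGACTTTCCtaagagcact
Cxcl1: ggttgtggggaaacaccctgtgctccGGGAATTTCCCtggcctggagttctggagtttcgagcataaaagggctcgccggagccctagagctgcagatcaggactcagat
Vcam1: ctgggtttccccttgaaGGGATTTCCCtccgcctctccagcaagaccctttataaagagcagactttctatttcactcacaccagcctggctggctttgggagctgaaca
Il6: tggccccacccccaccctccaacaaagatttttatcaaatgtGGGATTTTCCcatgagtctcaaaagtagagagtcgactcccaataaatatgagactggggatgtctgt
Tnfaip3 has κB matches that begin 67 and 55 bases before the start, and a further one at 170 bases, outside the stretch. In Cxcl1, overlapping matches begin 84 and 83 bases before the start. The single matches begin 93 bases before the start in Vcam1, 68 in Il6, 31 in Nfkbia, 20 in Nfkb2 and 13 in Nfkbiz. A match is a description of the letters and not a binding site, and genes with such matches both rose and fell below. Of the 8 called members per line with the largest changes, Cxcl12, Il33, Il1rn, Cx3cl1, C3 and Il1rl1 had a promoter without a κB match. Of the same members, Vcam1, Tnfaip3, Il6 and Cxcl1 had a match, and Ccl2, Nos2, Lbp and Cxcl3 had no promoter entry.

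Total counts per sample ranged from 16412564 to 34250535, and 3 counts corresponded to between 0.0839 and 0.170 FPM (fragments per 1000000 of the TMM-scaled library) in NRK-52E samples at pH 7.4. Of the epithelial markers, Krt8 was at 499 FPM in NRK-52E and at 839 FPM in NRK-49F cells at pH 7.4, while Cdh1 (0.160 FPM) and Epcam (0.00759 FPM) were near 0 in NRK-52E cells. Of the fibroblast markers, Pdgfra was at 306 FPM in NRK-49F and 1.83 FPM in NRK-52E cells, while Col3a1 was at 1212 and 6149 FPM. In NRK-52E cells the summed level of the 9 fibroblast markers went from between 4977 and 8160 FPM at pH 7.4 to between 1842 and 3120 FPM at pH 6.0, that of the 6 epithelial markers in the table from 441 to 651 FPM to 195.5 to 260 FPM, and that of the 5 endothelial markers from 10.3 to 21.5 FPM to 3.11 to 5.13 FPM. The endothelial fall was that of Tek, with means of 14.3 FPM at pH 7.4 and 1.76 FPM at pH 6.0. Vwf (0.637 to 1.65 FPM), Pecam1 (0.056 to 0.581 FPM) and Cdh5 (0.009 to 0.032 FPM) went up. Krt8 was the only epithelial marker with a mean of at least 1 FPM in either line. In NRK-49F cells the fibroblast sums went from between 10520 and 13450 FPM to between 7101 and 9607 FPM. The epithelial sums there went from 667 to 1207 FPM to 438 to 696 FPM, and the endothelial ones from 3.76 to 5.34 FPM to 5.70 to 8.84 FPM. The leukocyte markers Ptprc, Adgre1 and Tyrobp had no count in NRK-52E samples. In these cells the mean of Cd68 went from 1.90 to 4.15 FPM and that of Csf1r from 0.872 to 2.09 FPM, while Aif1 went from 0.371 to 0.119 FPM. The sum of all 7 macrophage and leukocyte markers there went from between 2.345 and 4.20 FPM to between 4.09 and 8.71 FPM. The summed level of the 7 macrophage and leukocyte markers ranged from 21.7 to 33.4 FPM at pH 7.4 and from 217 to 251 FPM at pH 6.0 in NRK-49F cells, almost all of it Cd68, a lysosomal protein that other cells also make. In such bulk samples, fewer cells of a type and less RNA per cell cannot be told apart. The part of these marker levels in the results below was not tested.

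In NRK-52E cells, most members that changed were lower at pH 6.0. Of the 37 tested members, 24 were regulated at a threshold of 0.05 on the Benjamini-Hochberg adjusted p of the quasi-likelihood test in edgeR, as were 61.2% of all tested genes, and 64.9% of the members is close to this background. By direction, 4 members were higher (10.8%, background 24.7%) and 20 were lower (54.1%, background 36.6%). The median log2 fold change was -0.62 over the members and -0.12 over all tested genes. In NRK-49F cells, 14 members were regulated (37.8%, background 28.9%), 5 of them higher (13.5%, background 14.5%) and 9 lower (24.3%, background 14.4%), with a median of -0.14 against 0.001 over all genes. The samples of both pH values did not overlap for 15 of the 37 members in NRK-52E cells (background 38.6%) and for 11 in NRK-49F cells (background 20.6%). Filtering each line alone kept 25 members in NRK-52E and 34 in NRK-49F, so that 12 of the 37, among them the called Ccl2, Cxcl12, Tnfaip6 and Vcam1, were tested in NRK-52E only through their level in NRK-49F.

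When the difference between the changes of both lines was itself tested, 18 members differed (48.6%, background 41.4%). In 7 members, Cxcl1, Cxcl12, Il33, Csf1, Nfkbie, Tlr4 and C3, the level fell in both lines. Icam1 rose in NRK-52E and fell in NRK-49F cells, and Nfkbia and Lbp did the reverse. With all samples in one fit, neither line passed the test for 9 members, Ccl20, Cxcl10, Cxcl16, Il18, Csf2, Nfkb1, Rela, Relb and Cd14. The shares of all genes in these classes were not computed, so these counts support nothing further. The calls of Il33, Tlr4 and Nfkbia in NRK-49F cells and of Tlr4 in NRK-52E cells were lost without single samples, as given below.

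**Figure D1:**
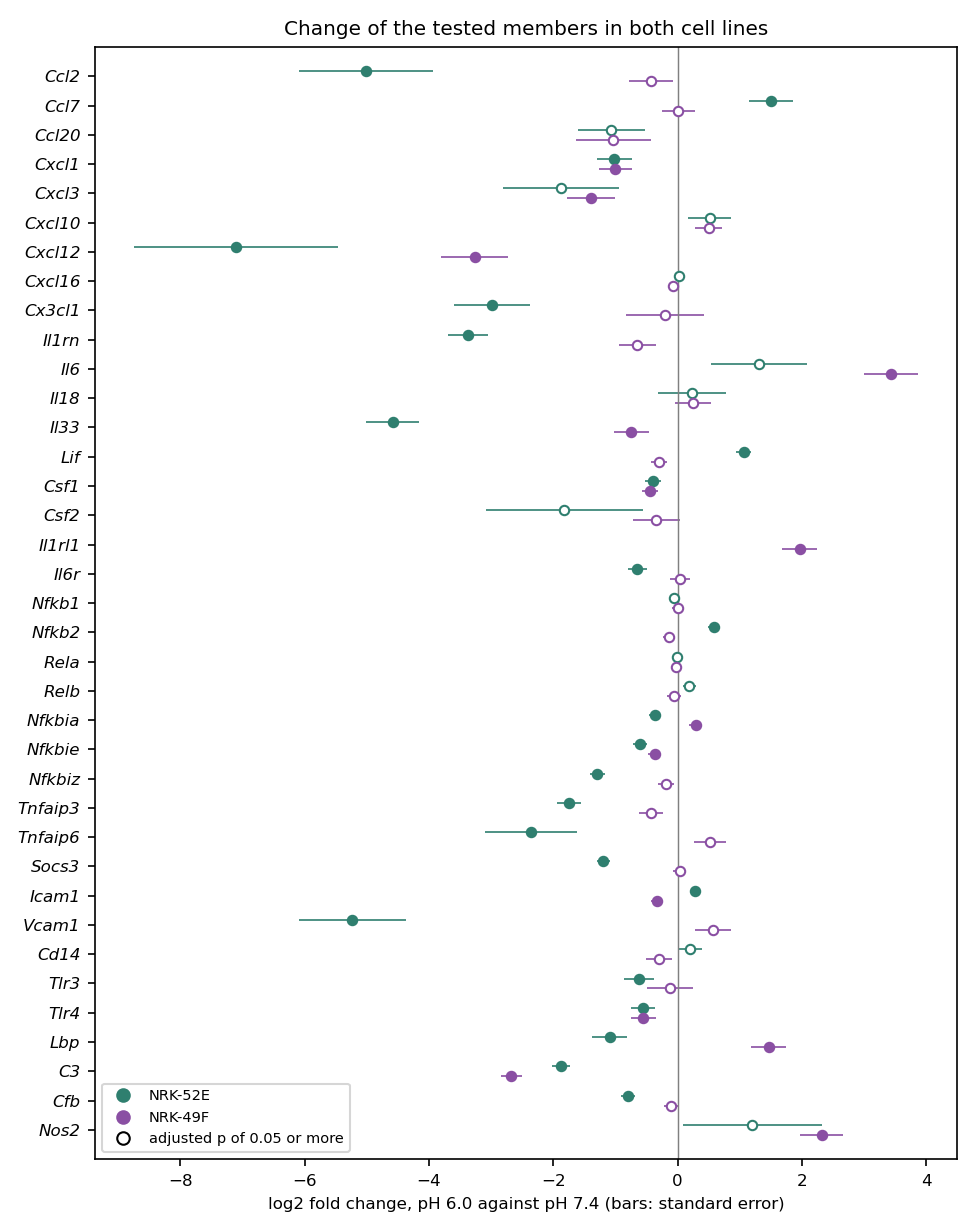
Log2 fold change of pH 6.0 against pH 7.4 (x axis) for the tested members (y axis) in NRK-52E (green) and NRK-49F cells (purple), with standard errors as bars; filled points passed the test at an adjusted p under 0.05. Il1rl1 had no count in NRK-52E cells and is drawn for NRK-49F alone, and the points of Cxcl12, Vcam1, Ccl2 and Il33 in NRK-52E lie farthest to the left, between -7.10 and -4.58.

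Before acidification the lines differed in most of these genes. At pH 7.4, 34 of the 37 members differed between the lines (91.9%, background 68.8%), 27 of them higher in NRK-49F cells. Several of them passed the filter on low counts through NRK-49F alone and had to differ, so this count supports nothing further. Ccl2, which attracts monocytes, was at 270 ± 29.4 FPM in NRK-49F and 1.05 ± 1.41 FPM in NRK-52E cells (SD, n = 6). Il33, an alarmin of the interleukin-1 family, was at 955 ± 42.4 FPM in NRK-49F and 7.93 ± 5.43 FPM in NRK-52E cells. The 7 members that were higher in NRK-52E cells were Cx3cl1, Nfkbiz, Socs3, Tlr3, Tlr4, C3 and Cfb. The call of Tlr4 was lost without A021, A041, A051 or A052 (adjusted p up to 0.113), and that of Socs3 without A034 (adjusted p = 0.0588). Among them, Tlr3, the endosomal receptor for double-stranded RNA, differed most, with 5.63 ± 0.390 FPM against 0.377 ± 0.236 FPM in NRK-49F cells. Ccl20, Il1rn and Cd14 did not pass the test of the line difference.

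Among the 9 chemokines tested, the epithelial line had 4 lower (background 36.6%) and 1 higher (background 24.7%) at pH 6.0. Of these falls, those of Ccl2 and Cxcl12 could be tested there only through their level in the other line. The fibroblast line had 3 lower (background 14.4%) and none higher (background 14.5%). Cxcl12, which retains CXCR4-bearing cells, was the chemokine with the largest change in NRK-49F cells. Its level there ranged from 389.9 to 574.5 FPM at pH 7.4 (median 488) and was 44.5, 62.7, 41.4, 55.2 and 44.0 FPM in the 5 samples at pH 6.0. The groups lay far apart, and the log2 fold change was -3.27 ± 0.55 (SE, adjusted p = 6.68e-05), a 9.62-fold lower level. In NRK-52E cells, Cxcl12 ranged from 0 to 7.39 FPM at pH 7.4 (median 0.0605), and 1 count was found over all 6 samples at pH 6.0. There the level rested on A021 and A022 (7.39 and 1.83 FPM), the other samples at pH 7.4 lay at or under 0.0754 FPM, and the groups overlapped. The fitted change was -7.10 ± 1.64 (adjusted p = 0.000625), and the test of the difference from NRK-49F cells was not passed (difference -3.84, 95% interval -8.83 to 1.16, adjusted p = 0.215).

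Ccl2 and Ccl7, related genes on chromosome 10 that both attract monocytes, were at 270 ± 29.4 and 180 ± 22.2 FPM in NRK-49F cells at pH 7.4. In those cells Ccl2 did not pass the test with all samples (log2 fold change -0.42, 95% interval -1.16 to 0.31), nor did Ccl7 (0.01, -0.53 to 0.56). With that line fitted alone, Ccl2 passed the test (-0.43, adjusted p = 0.0235). In NRK-52E cells Ccl2 ranged from 0 to 3.44 FPM at pH 7.4 (median 0.355) and from 0 to 0.0987 FPM at pH 6.0 (median 0.0262). A021 and A022 were high and the other 4 samples at pH 7.4 reached at most 0.546 FPM, so that the groups overlapped. Its fitted change was -5.01 ± 1.08 (adjusted p = 0.000306), from 179 counts at pH 7.4 and 4 counts at pH 6.0. Ccl7 went the other way in NRK-52E cells, from 1.14 ± 0.830 to 3.5 ± 1.66 FPM, a log2 fold change of 1.50 ± 0.35 (adjusted p = 0.000748), and the groups overlapped. The changes of both genes differed between the lines (adjusted p = 0.00369 for Ccl2 and 0.00918 for Ccl7). Reads that fit several places were counted, so reads of such related genes may be shared.

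Cx3cl1, a membrane-bound chemokine of epithelial and endothelial cells, ranged from 0.566 to 1.61 FPM at pH 7.4 (median 1.14) and from 0 to 0.524 FPM at pH 6.0 (median 0.0778) in NRK-52E cells. All samples at pH 6.0 were under those at pH 7.4, with a log2 fold change of -2.98 ± 0.62 (adjusted p = 0.000207) that differed from the one in NRK-49F cells (difference -2.78, adjusted p = 0.0150). The levels came from at most 41 counts a sample.

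The neutrophil chemokines Cxcl1, Cxcl2 and Cxcl3 are related genes on chromosome 14. In NRK-49F cells Cxcl1 ranged from 65.3 to 106 FPM at pH 7.4 (median 82.0), and the samples at pH 6.0 were at 30.6, 32.8, 52.7, 50.7 and 42.7 FPM. No sample overlapped, and the log2 fold change was -1.002 ± 0.27 (adjusted p = 0.00646). In NRK-52E cells Cxcl1 fell by the same measure, -1.02 ± 0.28 (adjusted p = 0.00327), from 8.19 ± 2.66 to 4.09 ± 2.84 FPM. Here A036 at pH 6.0 stood at 9.85 FPM, within the range of the samples at pH 7.4 (4.19 to 11.7 FPM). The difference between the lines was -0.02 (95% interval -0.78 to 0.74).

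Cxcl3 in NRK-49F cells ranged from 2.39 to 4.72 FPM at pH 7.4 (median 3.62) and was at 0.662, 1.10, 2.26, 1.44 and 1.17 FPM at pH 6.0. The groups did not overlap (log2 fold change -1.39 ± 0.39, adjusted p = 0.00874). In NRK-52E cells it was at most at 0.396 FPM, and its change of -1.87 did not pass the test (95% interval -3.80 to 0.06), nor did the difference between the lines (adjusted p = 0.670). Cxcl16, a transmembrane chemokine, had a tight interval around 0 in both lines, -0.10 to 0.15 on the log2 scale in NRK-52E and -0.20 to 0.07 in NRK-49F cells. For Cxcl10, an interferon-induced T-cell chemokine, the changes of 0.51 and 0.50 did not pass the test (adjusted p = 0.209 and 0.0834). With NRK-49F cells fitted alone, Cxcl10 passed the test there (0.50, adjusted p = 0.0167). Ccl20 did not pass it in either line (-1.07 and -1.03) and was at most at 0.980 FPM.

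Vcam1, the adhesion molecule that binds leukocyte integrin VLA-4, was at low levels in NRK-52E cells, and these were set against the signal of the other line. In these cells the 6 samples at pH 7.4 were at 4.00 (A021), 0.807 (A022), 0.415 (A023), 1.32 (A033), 0.273 (A034) and 0.396 FPM (A035). At pH 6.0 they were at 0.0531 (A024), 0 (A025), 0.0873 (A026) and 0 FPM (A036, A037 and A038). A021 stood apart, but all samples at pH 7.4 were above all samples at pH 6.0. The fitted log2 fold change was -5.23 ± 0.86 (adjusted p = 1.34e-05). It rests on 210 counts at pH 7.4, 143 of them in A021, against 4 counts at pH 6.0. The pooled ratio of pH 7.4 to pH 6.0 was 48.8 (exact 95% counting interval 18.8 to 181) with A021 and 20.96 (7.82 to 79.2) without it, and these intervals cover counting error only.

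The share of NRK-49F signal in each NRK-52E sample was estimated from 29 genes that are no members, had at least 50 FPM in NRK-49F cells at pH 7.4 and at most 3 counts in every NRK-52E sample at pH 6.0. It was 1.40% in A021, 0.458% in A033, 0.451% in A022 and between 0.0493% and 0.0692% in the other 3 samples at pH 7.4. At pH 6.0 it was between 0.00651% and 0.0198%, low by the way the genes were chosen. With 60 genes chosen instead by their lowest NRK-52E sample at pH 7.4, an alternative added after seeing the data, A021 was at 1.41% and the samples at pH 6.0 between 0.0580% and 0.0954%. The share times the level of Vcam1 in NRK-49F cells (271.8 FPM) predicts 3.79 FPM for A021, where 4.00 FPM were observed. It predicts 1.25 FPM for A033 and 1.23 FPM for A022, against 1.32 and 0.807 FPM observed. In A023, A034 and A035 the observed 0.415, 0.273 and 0.396 FPM were above the predicted 0.140, 0.188 and 0.134 FPM. Over the 6 samples the predicted mean was 93.2% of the observed mean.

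**Figure D2:**
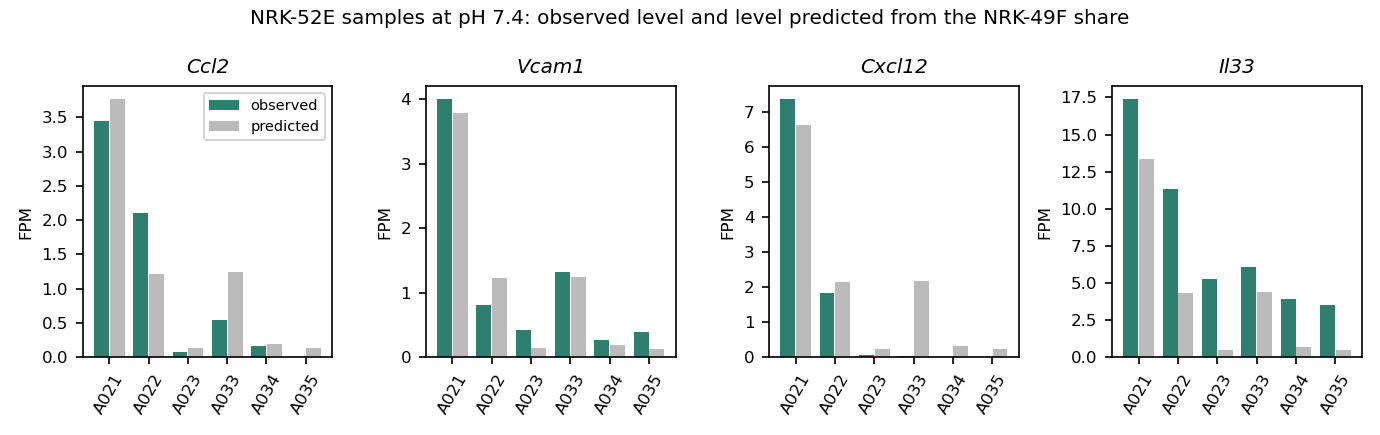
Observed level (green bars) and level predicted from the share of NRK-49F signal (grey bars), in FPM (y axis), of Ccl2, Vcam1, Cxcl12 and Il33 in the 6 NRK-52E samples at pH 7.4 (x axis). Both bars are highest in A021 in every panel, and for Cxcl12 in A033 the observed bar is near 0 where 2.18 FPM were predicted.

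Other members met the same measure. The predicted mean was 106% of the observed mean for Ccl2, 126% for Cxcl12, 64.9% for Ccl7 and 49.7% for Il33. For Cxcl12 in A021 and A022, 7.39 and 1.83 FPM were observed where 6.65 and 2.15 FPM were predicted. In A033 these were 0.0455 and 2.18 FPM, and in A023 0.0754 and 0.246 FPM. In A034 and A035 Cxcl12 had 0 FPM, where 0.330 and 0.235 FPM were predicted. Ccl2 in A033 was at 0.546 FPM, with 1.24 FPM predicted. The prediction thus did not hold gene by gene in every sample. For Il1rn, Cx3cl1, C3 and Tnfaip3 the predicted mean was 0.484%, 0.139%, 0.212% and 1.33% of the observed mean. With the estimated signal subtracted from the counts, Vcam1 was at -3.08 (adjusted p = 0.000871), Cxcl12 at -5.11 (0.0190) and Il33 at -4.13 (1.27e-09). Ccl2 (-2.09, adjusted p = 0.174) and Tnfaip6 (-2.05, 0.0513) no longer passed the test, Ccl7 was at 3.20 (4.05e-08), and Cxcl10 now passed it (0.83, 0.0448). The difference between the lines was then no longer called for Ccl2 (-1.67, adjusted p = 0.339). The subtracted shares came from genes chosen for low counts in the acidified epithelial samples. Little was thus removed from those samples, and weaker falls and stronger rises were built in. With the 60 genes chosen otherwise, the shares there were 0.0580% to 0.0954%, against 0.0664%, 0.0641% and 0.0288% in A023, A034 and A035. The subtraction was not repeated with these 60 genes, so these calls cannot tell how much of a change was signal of the other line. Without A021, Vcam1 was at -4.16, Ccl2 at -3.92, Cxcl12 at -4.78 and Il33 at -4.16, and all passed the test. The source of this signal was not tested.

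In NRK-49F cells Vcam1 ranged from 240 to 316 FPM at pH 7.4 (median 264) and was at 314, 344, 493, 433 and 426 FPM at pH 6.0. The lowest sample at pH 6.0 (313.8 FPM) was just under the highest at pH 7.4 (315.9 FPM). Its log2 fold change was 0.57 ± 0.29 and did not pass the test with all samples (adjusted p = 0.152). It passed with NRK-49F cells fitted alone (0.56, adjusted p = 0.00261) and after the subtraction (0.00339). The subtraction altered counts of NRK-52E samples only, so the NRK-49F counts in that fit were unchanged. The change of Vcam1 differed between the lines (difference -5.80 ± 0.92, adjusted p = 2.09e-05), and by -3.65 after the subtraction (adjusted p = 0.000349). Icam1, the other adhesion molecule and a ligand of leukocyte β2 integrins, moved by less and in the opposite order. In NRK-52E cells it ranged from 187 to 218 FPM at pH 7.4 (median 214) and from 226 to 283 FPM at pH 6.0 (median 258). NRK-49F samples ranged from 371 to 501 FPM at pH 7.4 (median 446) and were at 342, 335, 359, 347 and 353 FPM at pH 6.0. The groups did not overlap in either line, with log2 fold changes of 0.29 ± 0.08 (adjusted p = 0.00443) and -0.33 ± 0.09 (0.00541), and the lines differed by 0.62 (adjusted p = 0.000218).

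Of the 7 cytokines tested, NRK-52E cells had 3 lower (background 36.6%) and 1 higher (background 24.7%) at pH 6.0. NRK-49F cells had 2 lower (background 14.4%) and 1 higher (background 14.5%). Il33 in NRK-52E cells ranged from 3.51 to 17.4 FPM at pH 7.4 (median 5.69) and from 0.109 to 0.797 FPM at pH 6.0 (median 0.253). Every sample at pH 6.0 was under every sample at pH 7.4, also without A021, and the log2 fold change was -4.58 ± 0.42 (adjusted p = 2.18e-09). In NRK-49F cells Il33 went from 955 ± 42.4 to 572 ± 97.4 FPM, and its change of -0.74 ± 0.28 was close to the threshold (adjusted p = 0.0466). That call was lost when any of the 11 NRK-49F samples was left out, with adjusted p up to 0.115. It held with that line fitted alone (-0.75, adjusted p = 0.000201) and after the subtraction (adjusted p = 0.00999), which left the NRK-49F counts unchanged. The lines differed by -3.84 (adjusted p = 2.80e-06).

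Il1rn, the interleukin-1 receptor antagonist, did not pass the test between the lines at pH 7.4 (25.4 ± 5.31 and 29.8 ± 5.28 FPM). In NRK-52E cells it ranged from 19.1 to 31.9 FPM at pH 7.4 (median 25.9) and from 0.740 to 4.73 FPM at pH 6.0 (median 2.24). The groups lay apart, with a log2 fold change of -3.37 ± 0.32 (adjusted p = 4.22e-09), a 10.3-fold lower level. In NRK-49F cells the change of -0.64 did not pass the test (95% interval -1.26 to -0.03, adjusted p = 0.108) but passed with that line fitted alone (-0.65, adjusted p = 0.00754), and the lines differed by -2.72 (adjusted p = 2.01e-05). The ligands of the same receptor were barely seen, since Il1a and Il1b reached at most 7 and 4 counts in any sample.

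Il6, the acute-phase cytokine, was the regulated member with the largest rise. In NRK-49F cells it ranged from 0.0700 to 0.270 FPM at pH 7.4 (median 0.250) and was at 4.38, 1.34, 1.48, 2.06 and 2.33 FPM at pH 6.0. No sample overlapped, and the log2 fold change was 3.43 ± 0.43 (adjusted p = 1.84e-06), from 2 to 7 counts a sample at pH 7.4 to 22 to 86 counts at pH 6.0. It held in both sample groups, at 3.90 in group 4 and 3.07 in group 6. In NRK-52E cells Il6 had at most 4 counts in any sample, and the difference between the lines did not pass the test (adjusted p = 0.130).

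Lif, a cytokine of the Il6 family, went up in NRK-52E cells to 51.4 ± 11.4 FPM, with 24.6 ± 1.16 FPM at pH 7.4 and no overlap (log2 fold change 1.06 ± 0.12, adjusted p = 6.93e-08). In NRK-49F cells it was at -0.30 (adjusted p = 0.0785), and the lines differed by 1.36 (adjusted p = 1.42e-06). With NRK-49F cells fitted alone, Lif passed the test there (-0.31, adjusted p = 0.044). Csf1, which sustains macrophages, was lower at pH 6.0 in both lines, at -0.40 ± 0.13 (adjusted p = 0.00852) and -0.45 ± 0.13 (0.0113), with overlapping samples. With NRK-52E cells fitted alone its call there was lost (-0.31, adjusted p = 0.0514). Il18 and Csf2 did not pass the test in either line, and Csf2 had at most 2 counts in NRK-52E samples.

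Of the receptors, Il1rl1 (ST2), which binds Il33, had no count in any of the 12 NRK-52E samples. In NRK-49F cells it ranged from 0.735 to 2.102 FPM at pH 7.4 (median 1.35) and was at 3.77, 4.94, 7.68, 6.39 and 5.22 FPM at pH 6.0. The groups did not overlap, and the log2 fold change was 1.96 ± 0.29 (adjusted p = 0.000137). Il6r, the receptor of Il6, fell in NRK-52E cells from 18.6 ± 3.72 to 11.9 ± 3.04 FPM (-0.65 ± 0.16, adjusted p = 0.00102), with overlap, and was at 0.05 in NRK-49F cells (adjusted p = 0.868). The lines differed in Il6r by -0.69 (adjusted p = 0.0158).

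Among the 4 NF-κB subunits, Nfkb2 alone passed the test, in NRK-52E cells. Nfkb2 encodes p100, the precursor of p52 in the non-canonical pathway. It rose from 61.5 ± 3.96 to 92.2 ± 13.8 FPM without overlap (log2 fold change 0.58 ± 0.09, adjusted p = 2.95e-06), and its change differed from that in NRK-49F cells (difference 0.72, adjusted p = 5.91e-05). Rela, the main activating subunit, was at -0.02 in NRK-52E (95% interval -0.13 to 0.10) and -0.03 in NRK-49F cells (-0.15 to 0.09). Nfkb1 was at -0.05 (-0.24 to 0.14) and 0.00 (-0.20 to 0.20). Relb was at 0.19 in NRK-52E cells (-0.02 to 0.40), where it passed the test with RLE scaling (0.23, adjusted p = 0.0492) and with that line fitted alone (0.28, 0.0263), and at -0.06 in NRK-49F cells.

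All 6 members grouped as feedback genes of NF-κB or cytokine signals were lower at pH 6.0 in NRK-52E cells (background 36.6%). They were Nfkbia, Nfkbie, Nfkbiz, Tnfaip3, Tnfaip6 and Socs3, and 5 of the 6 differed between the lines (background 41.4%). One of them, Tnfaip6, was tested in NRK-52E cells through its level in NRK-49F cells. Its call there was lost after the subtraction of the NRK-49F signal (adjusted p = 0.0513), which favoured weaker falls by its choice of genes. Related genes outside the members went both ways in NRK-52E cells. Nfkbib (log2 fold change 0.42, adjusted p = 0.00647), Bcl3 (0.50, 0.0209) and Socs1 (1.08, 8.76e-06) rose. Nfkbid (-0.70, adjusted p = 0.00659) and Cish (-1.15, 1.22e-05) fell. Tnfaip3, which encodes A20, ranged from 12.6 to 21.5 FPM at pH 7.4 (median 17.4) and from 3.46 to 7.22 FPM at pH 6.0 (median 4.88) in NRK-52E cells. The groups did not overlap, and the log2 fold change was -1.74 ± 0.19 (adjusted p = 5.01e-08). In NRK-49F cells it went from 56.3 ± 5.51 to 41.9 ± 9.94 FPM (-0.43, adjusted p = 0.0917), and the lines differed by -1.31 (adjusted p = 0.000374). With NRK-49F cells fitted alone, Tnfaip3 passed the test there (-0.44, adjusted p = 0.0359). Nfkbiz, an atypical IκB protein of the nucleus, went from 41.3 ± 6.58 to 16.9 ± 2.61 FPM in NRK-52E cells (-1.29 ± 0.12, adjusted p = 1.75e-09), with a difference between the lines of -1.10 (adjusted p = 1.29e-05). Socs3, which brakes JAK-STAT signals of Il6-type cytokines, went from 31.9 ± 2.27 to 13.9 ± 1.88 FPM (-1.19 ± 0.10, adjusted p = 4.93e-10). In NRK-49F cells Socs3 was at 0.03 (95% interval -0.18 to 0.25), and the lines differed by -1.22 (adjusted p = 3.63e-07).

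Nfkbia, which encodes IκBα, moved in opposite directions. In NRK-52E cells it ranged from 48.5 to 54.7 FPM at pH 7.4 (median 49.9) and from 31.6 to 46.3 FPM at pH 6.0 (median 40.2), without overlap (log2 fold change -0.37 ± 0.10, adjusted p = 0.00191). NRK-49F samples ranged from 107 to 147 FPM at pH 7.4 (median 123) and were at 138, 132, 176, 175 and 143 FPM at pH 6.0, with overlap (0.29 ± 0.10, adjusted p = 0.0304). This rise was lost when A040, A051, A053, A054 or A055 was left out, with adjusted p up to 0.105. The difference between the lines was -0.66 (adjusted p = 0.000489). Nfkbie (IκBε) fell in both lines, at -0.60 ± 0.11 (adjusted p = 4.22e-05) and -0.37 ± 0.11 (0.0119), and the lines did not pass the test of a difference (-0.23, 95% interval -0.55 to 0.08). Tnfaip6, a hyaluronan-binding protein that inflammation induces, had at most 6 counts in NRK-52E samples, where its fitted change was -2.36 (adjusted p = 0.00864). In NRK-49F cells it was at 0.52 (adjusted p = 0.135).

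**Figure D3:**
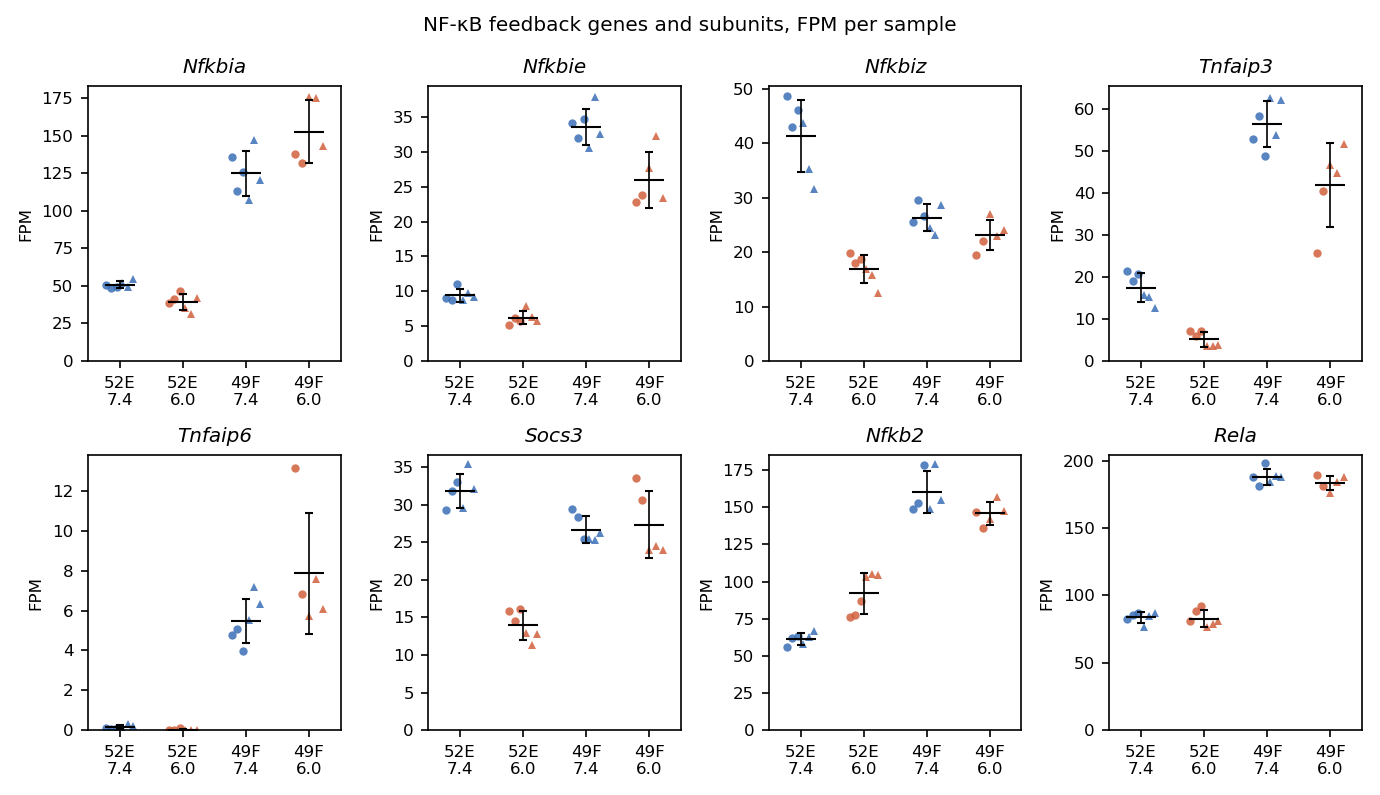
FPM (y axis) of the 6 feedback genes and of the subunits Nfkb2 and Rela in every sample, by line (52E, 49F) and pH (x axis); circles are sample groups 1 and 4, triangles groups 3 and 6, and black bars give mean and SD. In NRK-52E cells Tnfaip3 lies between 12.6 and 21.5 FPM at pH 7.4 and between 3.46 and 7.22 FPM at pH 6.0, while the means of Rela are 83.8 and 82.9 FPM.

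Of the pattern recognition genes, Lbp, the carrier of bacterial lipopolysaccharide, moved in opposite directions and by more than Nfkbia and Icam1. In NRK-52E cells it ranged from 14.1 to 26.4 FPM at pH 7.4 (median 20.8) and from 3.67 to 17.7 FPM at pH 6.0 (median 9.06), with overlap (log2 fold change -1.09 ± 0.28, adjusted p = 0.00191). Its range in NRK-49F cells was 28.4 to 39.1 FPM at pH 7.4 (median 36.9), and the samples at pH 6.0 were at 114, 123, 82.3, 79.5 and 93.7 FPM. There the groups did not overlap (1.47 ± 0.28, adjusted p = 0.000369), and the lines differed by -2.56 ± 0.40 (adjusted p = 1.94e-05). Tlr4, the receptor that senses this lipopolysaccharide, was at -0.55 in both lines (adjusted p = 0.0160 and 0.0462). The call in NRK-52E cells was lost without A021 (adjusted p = 0.0646), and that in NRK-49F cells was lost without any of 9 of the 11 samples (adjusted p up to 0.114). Tlr3 fell in NRK-52E cells from 5.63 ± 0.390 to 3.66 ± 0.546 FPM (-0.62 ± 0.24, adjusted p = 0.0262), but not without A034 or A037 (adjusted p up to 0.0623). Cd14, the co-receptor of Tlr4, did not pass the test in either line with all samples. It passed in NRK-49F cells with that line fitted alone (-0.31, adjusted p = 0.00747).

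C3, the central complement protein, fell in both lines. In NRK-52E cells it ranged from 42.6 to 65.3 FPM at pH 7.4 (median 52.4) and from 10.7 to 17.5 FPM at pH 6.0 (median 14.8). NRK-49F samples ranged from 23.4 to 33.5 FPM at pH 7.4 (median 25.7) and were at 3.46, 2.93, 4.78, 5.23 and 4.5 FPM at pH 6.0. Both lines had groups far apart, with log2 fold changes of -1.87 ± 0.14 (adjusted p = 1.17e-10) and -2.68 ± 0.17 (2.66e-11), and the fall was larger in NRK-49F cells (difference 0.81 ± 0.21, adjusted p = 0.00374). Cfb, the factor of the alternative pathway that pairs with C3, fell in NRK-52E cells from 23.02 ± 2.301 to 13.2 ± 2.39 FPM (-0.79 ± 0.11, adjusted p = 2.20e-06) and was at -0.10 in NRK-49F cells (adjusted p = 0.567). The lines differed in Cfb by -0.69 (adjusted p = 0.00171). Nos2, the inducible nitric oxide synthase, ranged from 0.609 to 0.979 FPM at pH 7.4 in NRK-49F cells (median 0.655) and was at 2.04, 2.68, 4.93, 2.81 and 5.17 FPM at pH 6.0. The groups did not overlap (2.32 ± 0.34, adjusted p = 1.46e-05), and NRK-52E samples had at most 3 counts of Nos2.

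**Figure D4:**
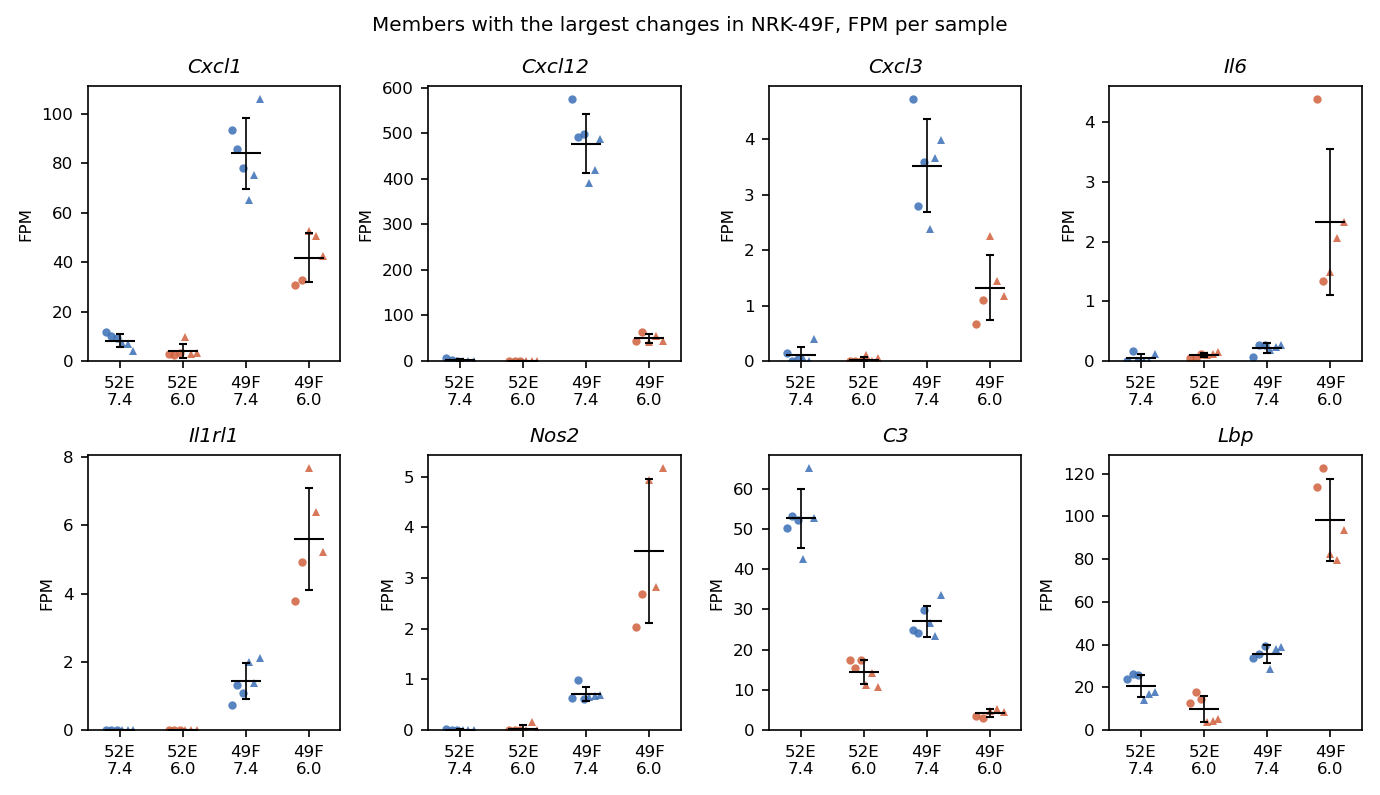
FPM (y axis) in every sample of the 8 members with the largest changes in NRK-49F cells, by line and pH (x axis), with circles for sample groups 1 and 4, triangles for groups 3 and 6, and mean and SD in black. In NRK-49F cells Cxcl12 falls from between 389.9 and 574.5 FPM to between 41.4 and 62.7 FPM, while Lbp rises from at most 39.1 FPM to at least 79.5 FPM.

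The sample groups of NRK-52E cells differed in the pH change of 8 members (21.6%, background 10.6%). For Cd14 the directions were opposite. Its level went from between 97.4 and 104 FPM to between 136 and 165 FPM in sample group 1, a log2 fold change of 0.60 ± 0.11 (adjusted p = 0.000196). In sample group 3 it went from between 81.5 and 99.8 FPM to between 56.5 and 77.5 FPM (-0.46 ± 0.11, adjusted p = 0.00188), and the difference of the changes was -1.06 (adjusted p = 0.000264). Il1rn fell in both groups, by more in group 3 (-4.57) than in group 1 (-2.92, adjusted p of the difference = 0.000611). Lbp likewise was at -1.88 in group 3 and -0.75 in group 1 (0.00173), and Cfb at -1.10 and -0.53 (0.0290). Lif rose by more in group 3 (1.29) than in group 1 (0.78, adjusted p of the difference = 0.0205). Cxcl1 fell in group 1 (-1.88) and was at -0.17 in group 3 (0.0196), where A036 was high. The differences of Ccl7 (adjusted p = 0.0493) and Icam1 (0.0475) were lost when any of 11 of the 12 samples was left out. That of Cfb was lost without A021, A022, A026, A034 or A037, that of Cxcl1 without A021, A025, A035 or A036, and that of Lif without A023, A025 or A036. With 1 sample left out, between 4 and 9 members were called, and 4 without A021, A025 or A036. What a sample group stands for is not named in the sources used here.

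**Figure D5:**
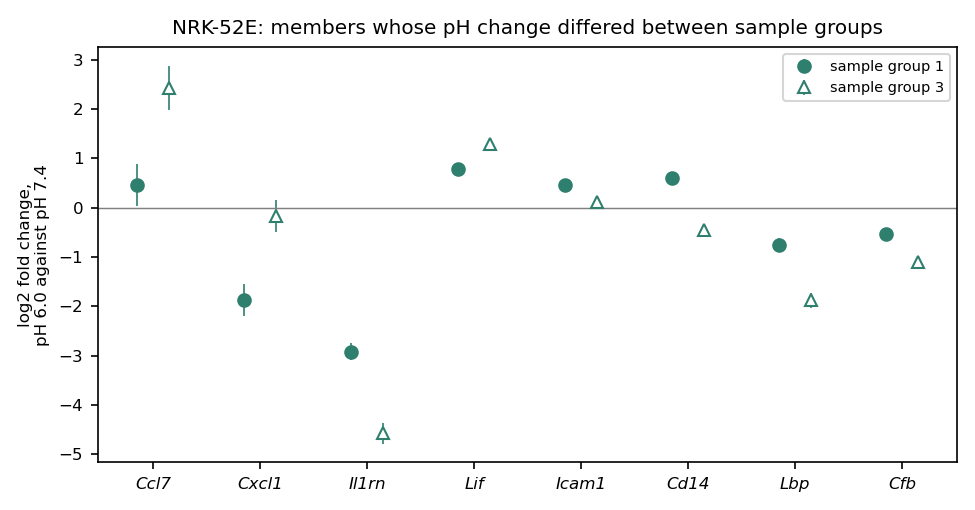
Log2 fold change of pH 6.0 against pH 7.4 (y axis) in NRK-52E cells for the 8 members whose change differed between sample group 1 (filled circles) and sample group 3 (open triangles), with standard errors as bars. Cd14 lies at 0.60 in group 1 and at -0.46 in group 3, and Il1rn at -2.92 and -4.57.

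Sample groups 4 and 6 of NRK-49F cells differed in the change of 0 members, and of 0% of all genes, by edgeR, and DESeq2 also called 0 members. At an unadjusted p under 0.05, 5 members and 596 genes differed. Within group 6 alone 8 members were regulated, with 16.2% of members higher (all genes 10.3%) and 5.41% lower (all genes 10.9%). Within group 4 alone 17 were regulated, with 13.5% higher (all genes 12%) and 32.4% lower (all genes 11%).

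Further genes of the same pathways were taken from 6 lists, of which 97 genes could be tested. In NRK-52E cells 16 were higher (background 24.7%) and 48 lower (background 36.6%), and in NRK-49F cells 11 were higher (background 14.5%) and 22 lower (background 14.4%). The same backgrounds apply to the counts of each list below. Of the 37 other genes of NF-κB signalling, 8 rose and 16 fell in NRK-52E cells, with a median log2 fold change of 0.01, and 5 rose and 4 fell in NRK-49F cells. Among them Tnip2, a partner of A20, was higher at pH 6.0 in NRK-52E cells, with 42.5 ± 2.74 against 18.2 ± 1.22 FPM (1.22, adjusted p = 4.66e-11). Birc3, an NF-κB-induced ubiquitin ligase, fell there from 6.34 ± 0.762 to 2.72 ± 0.932 FPM (-1.19, adjusted p = 4.40e-06). Ikbke, a kinase related to the IκB kinases, fell in NRK-52E (-1.26) and rose in NRK-49F cells (0.62, adjusted p = 0.0377), as did Irak2 (-0.69 and 0.89) and Tnip3 (-2.48 and 0.82).

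Of the 16 other complement and acute-phase genes, 11 fell and 1 rose in NRK-52E cells, and 6 fell and 3 rose in NRK-49F cells. Masp1 (-3.44), C1s (-3.14) and Lcn2 (-3.001) had the largest falls in NRK-52E cells among those with at least 1 FPM. The predicted NRK-49F signal was not computed for them. Hp, which binds haemoglobin, rose in NRK-49F cells (1.10) and was at -0.16 in NRK-52E cells. Of the 6 chemokine receptors, the scavenging receptors Ackr3 and Ackr4 fell in both lines. Ackr3, which takes up Cxcl12, went from 196 ± 12.4 to 62.3 ± 13.9 FPM in NRK-52E and from 127 ± 9.31 to 56.2 ± 6.99 FPM in NRK-49F cells (-1.65 and -1.17). Of the 5 other chemokines, 3 fell in NRK-52E cells, among them Cxcl17 (-1.92), and Cxcl13, which guides B cells, fell in NRK-49F cells (-1.63). Of 24 cytokine receptor and JAK-STAT genes, 12 fell and 4 rose in NRK-52E cells and 5 fell and 1 rose in NRK-49F cells. Il1r1, the receptor that Il1rn blocks, fell in both (-0.77 and -1.67). Of 9 Toll-like and NOD receptor genes, 4 fell and 2 rose in NRK-52E cells, and 3 fell and 2 rose in NRK-49F cells, and Tlr1 fell in both (-2.09 and -2.27). Ly96, the partner of Tlr4, rose in NRK-49F cells (1.04) and was at 0.01 in NRK-52E cells.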

How the data were processed

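Poly(A) RNA of 23 labelled samples was read in pairs, and the deposited table holds raw counts per gene, which the authors made with HISAT2 (2.1.0 in the submitters' processing notes) and featureCounts, with multi-mapping reads counted and without normalization. The labels give the genome build rn6 and the study's methods give rn7, and the strand setting is not given in the sources used here. Another 13 sample columns were not used, since they matched no label.

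Samples were grouped by the line and pH of their labels. A single model took all samples and 4 conditions (edgeR 4.0.16 under R 4.3.3). Genes were filtered by filterByExpr (count of 10, total of 15), TMM factors scaled the libraries, and quasi-likelihood p-values were adjusted after Benjamini-Hochberg over all 14777 genes (threshold 0.05). A fit with 8 conditions tested the sample groups. FPM are edgeR's cpm on the TMM-scaled library. The SE is the log2 fold change over the square root of F. DESeq2 1.42.0, other scalings (RLE, upper quartile), other filters, thinned libraries, each line alone, the sample group as a block, subtraction of the estimated signal and leaving out each sample were alternatives. The steps were tested on simulated data. Promoters were searched and figures drawn in Python 3.11.15 with matplotlib 3.10.9.

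The members, lists and tests were chosen with earlier results of these data known. Values by sample are given for Vcam1, for the 8 called members per line with the largest absolute log2 fold change and at least 1 FPM in 1 condition, and for members called in opposite directions. Of the other lists, at most 3 genes per list and line are named by the same measure, besides the related genes given with the feedback genes. Libraries of 1 group always differed by more than sampling noise. Counting intervals cover counting error only, since reads are not independent molecules.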

Additional observations from a re-analysis of the deposited data

Results flagged for a closer look

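In 12 of 136 member and group combinations the highest or lowest sample stood far from the others, and chance alone gives such a gap in about 1 of 20 groups. In NRK-52E cells at pH 7.4, A021 stood apart for Ccl7 (2.66 FPM, nearest sample 1.18 FPM), Cxcl12 (7.39, nearest 1.83), Vcam1 (4.00, nearest 1.32) and Icam1, where it was the lowest (187, nearest 209). In the same group A035 stood apart for Cxcl3 (0.396 FPM, nearest 0.140) and A033 for Il18 (0.228 FPM, nearest 0.0754). In NRK-52E cells at pH 6.0 these were A036 for Cxcl1 (9.85 FPM, nearest 3.35) and A024 for Il18 (0.266 FPM, nearest 0.110). In NRK-49F cells at pH 6.0, A042 was low for Il33 (398 FPM, nearest 600) and high for Tnfaip6 (13.2 FPM, nearest 7.58), and A055 was high for Relb (50.6 FPM, nearest 43.6). In NRK-49F cells at pH 7.4, A040 was high for Nos2 (0.979 FPM, nearest 0.701).

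The test of the difference itself, NRK-52E minus NRK-49F on the log2 scale, flagged 18 members. It was negative for Vcam1 (-5.80, and -3.65 after the NRK-49F signal was subtracted), Ccl2 (-4.59, and not called after that subtraction), Il33 (-3.84), Tnfaip6 (-2.87), Cx3cl1 (-2.78), Il1rn (-2.72), Lbp (-2.56), Tnfaip3 (-1.31), Socs3 (-1.22), Nfkbiz (-1.10), Il6r (-0.69), Cfb (-0.69) and Nfkbia (-0.66). It was positive for Ccl7 (1.49), Lif (1.36), C3 (0.81), Nfkb2 (0.72) and Icam1 (0.62). Between sample groups of NRK-52E cells, group 3 minus group 1, 8 members were flagged: Ccl7 (1.96), Cxcl1 (1.70), Lif (0.51), Icam1 (-0.35), Cfb (-0.57), Cd14 (-1.06), Lbp (-1.13) and Il1rn (-1.65).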

How the results depend on the processing

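The count of members regulated in NRK-52E cells (24) lay between 16 and 26 under all alternatives, with 16 of 21 tested when at least 10 counts were asked of every sample. In NRK-49F cells 14 members became 8 under that filter and 8 within sample group 6, and 21 of 34 with that line fitted alone, where Ccl2, Cxcl10, Il1rn, Lif, Tnfaip3, Vcam1 and Cd14 passed as well, and the cause was not tested. The line difference at pH 7.4 counted 19 members under the same filter, for which only 21 could be tested. The count for sample groups 3 against 1 was 5 with every gene of at least 1 count, and 4 to 9 with 1 sample left out. With 1 sample left out, the counts were 23 to 25 in NRK-52E cells, 11 to 13 in NRK-49F cells, 18 to 19 for the difference of the changes and 33 to 34 between the lines. Within sample group 1 Cxcl10 was at -0.26 in NRK-52E cells (not called), and within sample group 3 Cd14 was at -0.46, the reverse of their values over all samples, and the cause was not tested. From the 9 fibroblast markers the Vcam1 level predicted for A021 was 110 FPM in place of 3.79 FPM (3.23 FPM with 5 genes of at least 200 FPM, 3.83 FPM with 60 genes), since NRK-52E cells hold 6149 FPM of Col3a1 themselves. No paired analysis was possible because no sample code occurs at both pH values. Depth limits Il6, Nos2, Csf2, Tnfaip6 and Il18 in NRK-52E cells, which had at most 6 counts a sample.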
